A study of Mus musculus with 12 samples.

Results

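Activated fibroblasts are the matrix-building stromal cells of a tumor, and 9 of the 10 genes described here mark them or encode matrix proteins that they secrete; Sparcl1, the other gene, encodes a relative of Sparc that is also made by cells of the vessel wall. The 10 genes were found by name among the 55878 genes listed for tumors and the 56061 listed for cultured cells, each as 1 row. The genes were chosen by role and with the tumor TPM values in view: Fap and Sparcl1 were selected on their lower levels in knockdown tumors, and the others as fibroblast genes to set beside them. Values of the knockdown contrast in tumors are therefore given for these genes as a description and support nothing by themselves; how many of them the fit across all genes called is given once, beside the share of all genes, and nothing is read from it.

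HM1 is a mouse ovarian cancer cell line. RNA was sequenced from 12 libraries in 4 groups of 3: cultured HM1 cells with a control hairpin (shControl, genotype labelled wild type), cultured HM1 cells with a hairpin against St3gal3 (shST3GAL3, genotype labelled ST3GAL3 knockdown), and tumor tissue of each line. All groups thus carry HM1 cells with a short hairpin RNA, and the tumors also hold host cells. The host strain, age and tumor site, and whether each line was 1 clone, are not given in the sources used here. Nor do the labels tell if the 3 samples in a group are separate cultures or mice; p-values therefore measure only the spread between samples, which may be technical. St3gal3, which encodes a sialyltransferase, was at 9.59 to 12.93 TPM in control and 1.25 to 1.83 TPM in knockdown cultures, and at 14 to 15.39 and 5.76 to 7.28 TPM in the corresponding tumors. TPM is the share of a gene in all transcripts of a library, corrected for gene length and scaled to one fixed total. It keeps no depth, so the depth of the libraries is unknown. A culture library held 12629 to 13145 genes at 1 TPM or more, and a tumor library 14046 to 14534.

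In a growing tumor, fibroblasts of the host are activated by signals such as TGF-beta and PDGF. Activated cells display the surface protease FAP and the PDGF receptor alpha, secrete collagens and matricellular proteins such as periostin and SPARC, and remodel matrix with metalloproteinases. Decorin and lumican are small proteoglycans that coat collagen fibrils and govern their spacing. SPARCL1, also called hevin, shares the collagen-binding part of SPARC and is known as an anti-adhesive protein, and it is found in mural and endothelial cells as well as in fibroblasts.

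Of the 10 genes, 1 reached a mean of 1 TPM in cultured HM1 cells. Sparc was at 112.46, 137.49 and 133.68 TPM in control cultures and at 140.39, 123.7 and 113.53 TPM in knockdown cultures. These groups overlapped, and the log2 change was -0.02 (SE 0.109, limma adjusted p = 1.00). The log2 changes here and below are differences of mean log2(TPM + 1), which understate changes of low genes. The other 9 genes missed the mean of 1 TPM that a group needed for testing in culture. Fap was listed at 0 in all 6 culture libraries, and the highest culture value of any of the 9 was 1.26 TPM, for Pdgfra. Pdgfra (0.43 to 1.26 TPM), Dcn, Thy1 and Sparcl1 were above 0 in all 6. Of the genes tested in culture, limma called 0.0296%, and Sparc was not among them; its unadjusted p was 0.841.

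In tumors all 10 genes passed the filter, and the lowest value of any of them in any tumor was 3.22 TPM, for Fap. The tables of the 2 tissues were normalized on their own, which makes the comparison of levels descriptive. Postn was at 190 TPM in control tumors against 0.190 TPM in control cultures, and Thy1 at 103 against 0.143 TPM. Sparc was 6.03 times as high in control tumors as in control cultures. The plot of culture and tumor libraries shows that gap for every gene. Col1a1, the fibrillar collagen that defines fibroblast matrix, was at 410 TPM in control tumors and 0.170 TPM in control cultures; it was picked for this check after its values were seen. The label is less clean for some genes. Prrx1, a mesenchymal transcription factor, was at 16.9 TPM in control tumors but already at 7.46 TPM in control cultures. The proteoglycan gene biglycan (Bgn) was at 434 TPM and Sparc at 128 TPM in control cultures. The part of HM1 cells in the tumor levels of these genes was not tested. Bulk RNA does not tell fewer cells of a type from less RNA per cell.

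**Figure D1:**
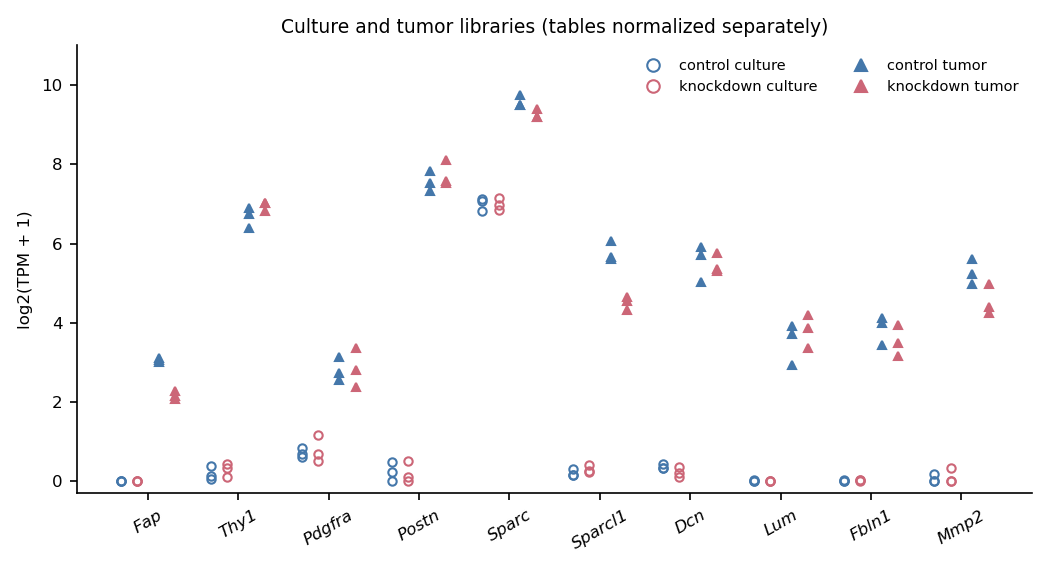
Level of each gene as log2(TPM + 1) on the vertical axis; open circles are culture libraries, filled triangles tumor libraries, blue control and red knockdown. Sparc is the gene with culture values far from 0 (112.46 to 140.39 TPM); the other 9 stay at or below 1.26 TPM in culture.

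Sparc and Postn were the most abundant genes of the set in tumors but differed in control cultures, at 128 and 0.190 TPM, and their upstream sequences are shown for that contrast. RefSeq promoter entries (build GRCm38.p6, not the build of the tables) were found for 4 of the 10 genes. The 250 bases before the start are printed 5′ to 3′ in the direction of transcription, at chr3:54360857-54361106 on the plus strand for the second of 2 Postn entries and chr11:55420081-55420330 on the minus strand for Sparc; capitals mark a TATA box (TATAAA) or an E-box (CANNTG).
Postn: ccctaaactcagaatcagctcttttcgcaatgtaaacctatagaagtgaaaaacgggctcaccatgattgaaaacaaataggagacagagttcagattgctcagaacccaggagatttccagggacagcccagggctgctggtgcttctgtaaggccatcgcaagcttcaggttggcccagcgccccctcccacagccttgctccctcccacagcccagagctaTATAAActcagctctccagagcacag
Sparc: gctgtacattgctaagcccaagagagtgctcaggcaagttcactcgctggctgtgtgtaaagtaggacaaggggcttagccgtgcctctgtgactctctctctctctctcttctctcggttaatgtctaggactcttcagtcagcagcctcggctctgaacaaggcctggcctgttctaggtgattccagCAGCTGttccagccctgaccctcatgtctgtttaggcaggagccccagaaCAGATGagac
The Postn window holds a TATAAA that begins 26 bases before the start and no E-box, and the Sparc window holds 2 E-boxes and no TATAAA, both strands searched. The first Postn entry, at chr3:54359017-54359266, holds neither motif; it is not printed because the bases after its start were found in no Postn transcript of the GENCODE annotation used. Among 32841 RefSeq promoters, 12.4% hold TATAAA and 66.2% hold CANNTG in the same window. No match was found in either window for TGANTCA (AP-1, in 6.75% of promoters), GGAATG (TEAD, 12.6%) or GGAGGA (29.2%), on both strands, and no motif overlapped another here. These matches are descriptions of letters and do not show binding.

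With the knockdown, Sparcl1, Fap, Mmp2 and Sparc were lower in every knockdown tumor than in every control tumor, and the remaining 6 genes overlapped between groups. Sparcl1 was at 40.1% and Fap at 47.9% of the control mean, Mmp2 at 59.4% and Sparc at 79.5%. Pdgfra, Postn, Lum and Thy1 had positive changes and 6 genes negative ones, where 60.4% of all genes tested were negative. Limma across all 14915 genes called 2 of the 10, Sparcl1 and Fap, both lower, where 0.436% of all genes tested were called lower, 1.07% higher and 1.51% in either direction. Groups that did not overlap with the knockdown lower were found for 14.9% of all genes. The count of 2 was 0 to 2 when a single library was left out. Because that contrast was in view when the list was made, nothing is read from these counts. The median log2 change of the 10 was -0.20, beside -0.05 over all genes tested.

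**Figure D2:**
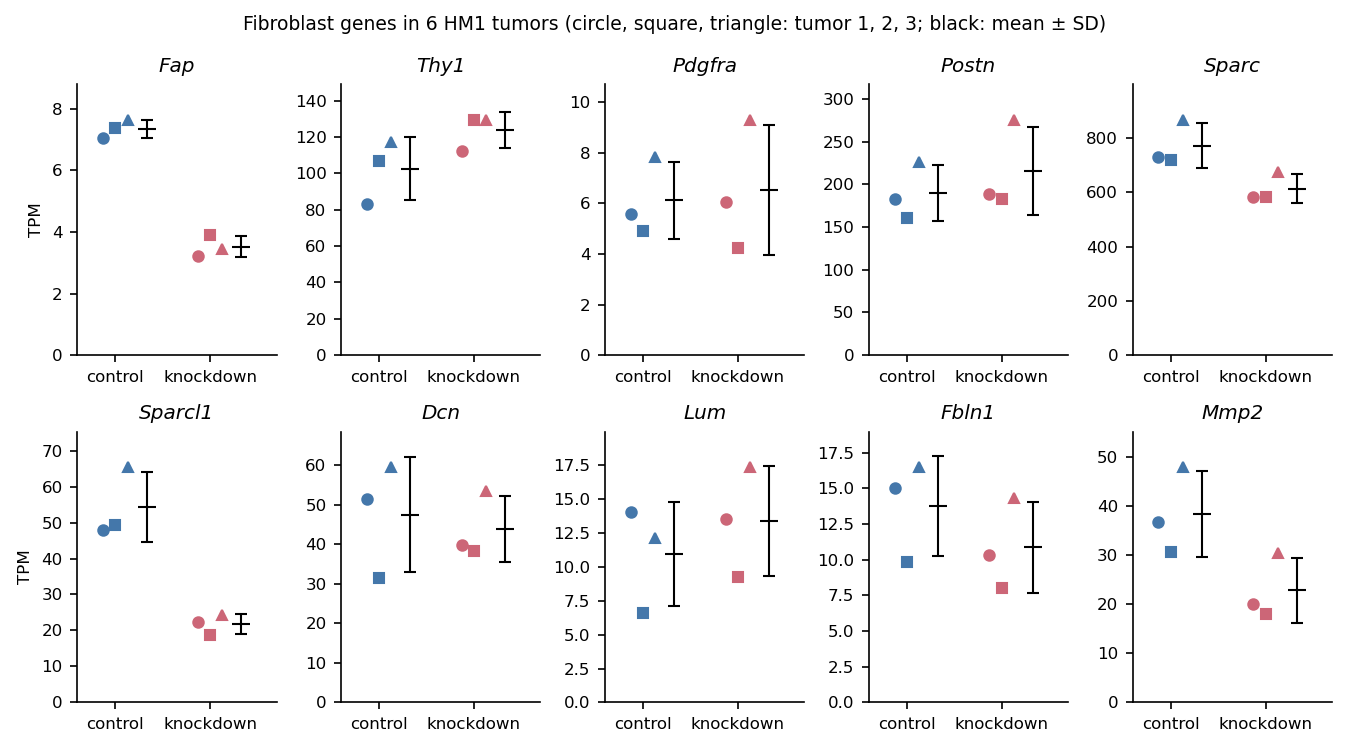
TPM of the 10 genes in the 6 tumors, one panel per gene with the vertical axis from 0; circle, square and triangle are tumors 1, 2 and 3 of each group, and the black mark is the mean ± SD (n = 3). Fap, Sparcl1, Sparc and Mmp2 separate the groups, while the other 6 panels overlap.

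Among the surface molecules, Fap, a membrane protease named for its presence on activated fibroblasts, was at 7.06, 7.36 and 7.64 TPM in the control tumors and at 3.22, 3.89 and 3.46 TPM in knockdown tumors. Each knockdown tumor held close to the same level. The group means were 7.35 ± 0.290 and 3.52 ± 0.339 TPM (SD, n = 3 each), a log2 change of -0.89 (SE 0.105). Fap was selected on this difference.

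Pdgfra, the receptor through which PDGF drives fibroblast growth, was at 5.6, 4.93 and 7.85 TPM in the control tumors and at 6.05, 4.24 and 9.31 TPM in knockdown tumors. The groups overlapped entirely, with the highest and the lowest value both in knockdown tumors (log2 change 0.05, SE 0.269). Fap was at 124 ± 26.0% of the Pdgfra level in control tumors and at 60.7 ± 28.1% in knockdown tumors (SD, n = 3 each), and knockdown tumor 2 (91.7%) came within a few points of control tumor 3 (97.3%).

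Thy1, a surface glycoprotein of fibroblasts that mouse T cells also carry, was at 83.41, 106.85 and 117.39 TPM in the control tumors and at 112.34, 129.28 and 129.45 TPM in knockdown tumors. It ran opposite to Fap, with overlap through knockdown tumor 1 (log2 change 0.28, SE 0.130). The 6 T cell markers summed to 11.04 to 26.07 TPM in control tumors and 37.65 to 45.87 TPM in knockdown tumors. All 6 were tested and had positive changes, 0 were called by limma, and 5 had an unadjusted p under 0.05; Cd3e was at 2.10 ± 0.805 and 5.11 ± 0.859 TPM and Cd3d at 1.75 ± 0.931 and 3.77 ± 0.391 TPM (limma adjusted p = 0.0853 and 0.139). Their part in the Thy1 values was not tested.

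Of the matricellular proteins, periostin (Postn), which binds integrins and crosslinks collagen, was at 182.98, 160.5 and 225.73 TPM in the control tumors and at 189.02, 182.26 and 275.39 TPM in knockdown tumors. Tumor 3 was the highest of its group on both sides, and the groups overlapped (log2 change 0.17, SE 0.197).

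Sparc, which binds collagen and calcium, was the most abundant gene of the set, at 727.91, 717.53 and 866.55 TPM in the control tumors and at 581.36, 582.06 and 673.63 TPM in knockdown tumors. The highest knockdown tumor stayed under the lowest control tumor, but the difference was modest (log2 change -0.33, SE 0.0940). Sparc was 54.7 to 63.8% of the summed TPM of the 10 genes in tumors, so that sum, 1125.01 to 1426.66 TPM in control and 994.06 to 1230.95 TPM in knockdown tumors, mostly follows Sparc.

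Sparcl1 had the lowest ratio of knockdown to control mean among the 10 genes. It was at 48.02, 49.2 and 65.42 TPM in the control tumors and at 22.22, 18.84 and 24.18 TPM in knockdown tumors. The highest knockdown tumor lay at about 50.4% of the lowest control tumor, and the log2 change was -1.27 (SE 0.143). Relative to Sparc in the same library, Sparcl1 was at 6.60, 6.86 and 7.55% in control tumors and at 3.82, 3.24 and 3.59% in knockdown tumors. Every knockdown tumor was below every control tumor in this ratio. Sparcl1 was selected on its values in these tumors, so the ratio adds no support.

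The proteoglycan genes did not separate the groups. Decorin (Dcn) was at 51.54, 31.5 and 59.52 TPM in the control tumors and at 39.91, 38.29 and 53.41 TPM in knockdown tumors. Control tumor 2 was the lowest of all 6, and all knockdown values lay inside the control range (log2 change -0.08, SE 0.260). Lumican (Lum), at 14.05, 6.63 and 12.14 TPM in control and 13.55, 9.26 and 17.38 TPM in knockdown tumors, also had its lowest value in control tumor 2 (log2 change 0.29, SE 0.323). Without control tumor 2 the Lum change was -0.0065 and that of Dcn -0.35, so this library decides the sign for Lum. For Dcn the sign turned positive on leaving out the first control tumor (0.0012), the third (0.10) or the second knockdown tumor (0.0077).

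Fibulin 1 (Fbln1), a glycoprotein of elastic fibers and basement membranes, was at 15.01, 9.83 and 16.49 TPM in the control tumors and at 10.33, 7.99 and 14.3 TPM in knockdown tumors. The means differed by less than the range within either group (log2 change -0.32, SE 0.250). Mmp2, a gelatinase that cuts denatured collagen and basement membrane collagen, was at 36.68, 30.68 and 47.93 TPM in the control tumors and at 20.04, 17.95 and 30.44 TPM in knockdown tumors. Here the groups just failed to touch, since knockdown tumor 3 (30.44 TPM) lay beside control tumor 2 (30.68 TPM), and the log2 change was -0.74 (SE 0.238). Set against Postn in the same library, Mmp2 varied less than on its own, where the coefficients of variation were 22.8 and 29.3%. It was at 20.1 ± 1.06% of the Postn level in control tumors and at 10.5 ± 0.609% in knockdown tumors (SD, n = 3 each). This separation was not particular to Mmp2, since Fap, Sparcl1, Sparc and Fbln1 relative to Postn separated the groups too. Fbln1, which overlapped on its own, was at 6.12 to 8.20% and 4.38 to 5.47% of Postn. Postn itself was at 113.6% of its control mean in knockdown tumors. The tumor values were in view, so these ratios add no support. Set against Timp2, an inhibitor of metalloproteinases, Mmp2 was at 9.83 ± 1.59% and 7.02 ± 2.32%, and there the groups overlapped.

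**Figure D3:**
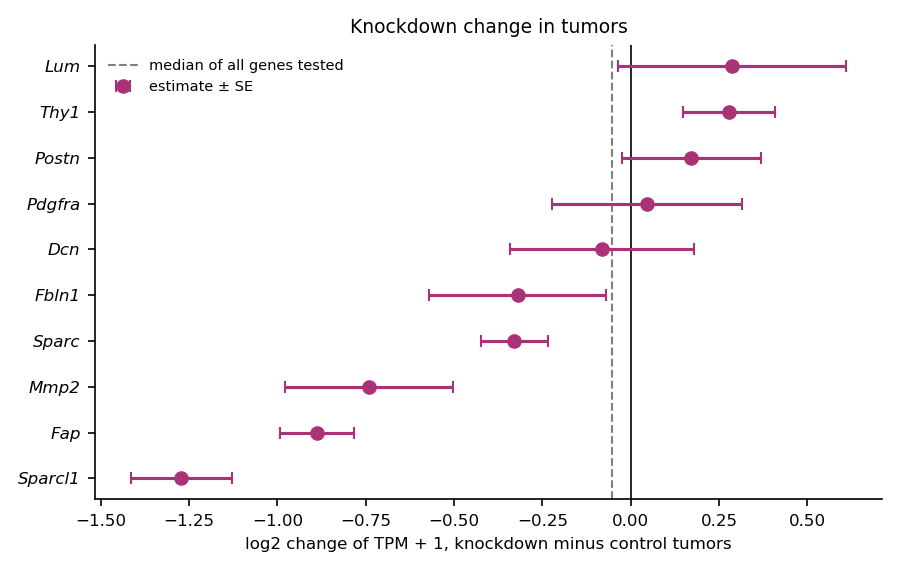
Log2 change of TPM + 1, knockdown minus control tumors, for the 10 genes with the standard error as bars (6 tumors); the dashed line is the median of all genes tested, -0.05. The values run from -1.27 for Sparcl1 to 0.29 for Lum.

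In the order of levels in control tumors, Sparc (771 TPM), Postn (190), Thy1 (103), Sparcl1 (54.2), Dcn (47.5), Mmp2 (38.4), Fbln1 (13.8), Lum (10.9), Fap (7.35) and Pdgfra (6.13) followed each other. The first 3 were apart from their neighbours in every control tumor. The ranges of Sparcl1 and Dcn overlapped, as did those of Dcn and Mmp2 and of each neighbouring pair from Fbln1 down. In knockdown tumors Sparcl1 stood below Mmp2 with overlapping ranges (21.7 and 22.8 TPM), at rank 6 in place of rank 4. Fap stood at rank 10 in place of rank 9, with no overlap with Pdgfra.

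Tumors of the same group differed in a way that most of the genes shared. Tumor 3 was the highest of its group for 9 of 10 genes among control tumors and for 9 of 10 among knockdown tumors, and tumor 2 the lowest for 7 of 10 in each. The exceptions at the top were Lum (control tumor 1) and Fap (knockdown tumor 2). Coefficients of variation within a group ran from 3.94% for Fap in control tumors to 39.3% for Pdgfra in knockdown tumors. The labels do not tie control tumor 3 to knockdown tumor 3, so whether the numbers pair the tumors is unknown. Endothelial markers summed to 224.5 TPM in control tumor 3 and 181.77 TPM in knockdown tumor 3, also the highest of each group. Sums of several other lists described below were likewise highest in tumor 3 of each group. Other activated fibroblast and matrix genes summed to 3874.43 and 3038.02 TPM there, and TGF-beta pathway genes to 760.22 and 729.65 TPM. Mural markers did not follow among control tumors, at 288.2 TPM in tumor 2 and 286.61 TPM in tumor 3. The part of any cell type in these differences was not tested.

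**Figure D4:**
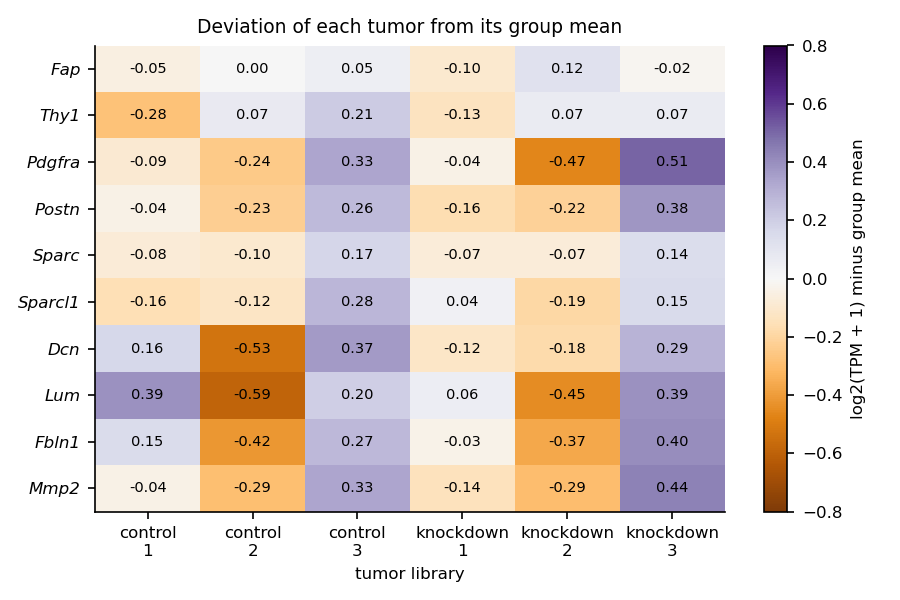
Deviation of each tumor (columns) from the mean of its own group in log2(TPM + 1) for each gene (rows), printed in the cells; purple is above and orange below the group mean. The columns of control tumor 3 and knockdown tumor 3 are purple for most genes, and Fap varies by no more than 0.12 in any tumor.

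Other genes of the same biology, taken from lists that exclude the 10, were tested in the same fit, in which 18.7% of all genes had an unadjusted p under 0.05. Of 17 other activated fibroblast and matrix genes tested, limma called 1 lower and 0 higher, and 7 had an unadjusted p under 0.05. Negative changes were found for 14 and positive ones for 3, with a median log2 change of -0.22. The list summed to 3248.65 to 3874.43 TPM in control and 2091.91 to 3038.02 TPM in knockdown tumors. The called gene was Cthrc1, a secreted collagen triple helix repeat protein, which fell from 14.9 ± 1.65 to 8.28 ± 1.21 TPM (SD, n = 3 each; limma adjusted p = 0.0424) and was listed at 0 in all culture libraries. Of 11 resting fibroblast genes tested, 9 had negative changes (median -0.29), and 4 had an unadjusted p under 0.05. The 1 called gene, Ly6a, rose from 209 ± 41.5 to 716 ± 126 TPM (limma adjusted p = 0.0170). It encodes the Sca-1 antigen, which is also interferon-inducible and is carried by many cell types. Ly6a was also expressed in culture, at 83.9 ± 7.02 and 136 ± 18.6 TPM (limma adjusted p = 0.506). With no filter on low values Cthrc1 was not called (limma adjusted p = 0.105). No omission of a single library kept the Cthrc1 call, and 3 of the 6 lost the Ly6a call (control tumor 3 and knockdown tumors 1 and 2). Without knockdown tumor 3, limma called 4 other genes of the activated list lower: Col1a1, Col1a2, Fn1 and Tnc. With any other library omitted, none of that list was called.

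Fibroblast transcription factors had 0 of 7 called by limma, with 1 at an unadjusted p under 0.05 and a median of 0.03. Prrx1 stood at 16.9 ± 0.945 and 20.7 ± 2.59 TPM (limma adjusted p = 0.229), Meox1 at 1.84 ± 0.401 and 1.28 ± 0.304 TPM (limma adjusted p = 0.379).

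Of the SPARC family outside the set, 2 genes were tested. Smoc2, a modular calcium-binding protein related to Sparc, fell from 12.7 ± 1.49 to 5.73 ± 1.60 TPM (log2 change -1.05, SE 0.180, limma adjusted p = 0.0458), a call that held in 1 of 6 omissions, that of knockdown tumor 3, and was lost with no filter (limma adjusted p = 0.114). Its value in each library was 12.92, 11.13 and 14.08 TPM in control tumors and, with the knockdown, 5.37, 4.34 and 7.47 TPM. Like Sparcl1, it was near 0 in culture, with 0.31 TPM as its highest value.

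Relatives of the other members gave few calls. Among 5 other small leucine-rich proteoglycans 0 were called by limma and 0 had an unadjusted p under 0.05; Bgn was at 1067 ± 81.6 and 944 ± 81.3 TPM and Aspn at 10.7 ± 2.17 and 8.66 ± 1.07 TPM (limma adjusted p = 0.299 and 0.405). Among 11 fibulin and elastic fiber genes 0 were called and 2 had an unadjusted p under 0.05, Fbln7 and Mfap5. Fbln7 was at 1.99 ± 0.831 and 0.863 ± 0.101 TPM (limma adjusted p = 0.218). It lay near the filter and reached a mean of 1 TPM in control tumors only. Mfap5, a microfibril protein, was at 35.6 ± 9.80 and 21.0 ± 7.68 TPM (limma adjusted p = 0.259). Of 11 other metalloproteinases and inhibitors 6 had negative and 5 positive changes (median -0.02), and 5 had an unadjusted p under 0.05. Limma called 1 of them, Mmp9, which fell from 486 ± 26.5 to 287 ± 52.1 TPM (limma adjusted p = 0.0497). Mmp9 is the other gelatinase, which myeloid cells also make. No omission of a library kept this call, which was also lost with no filter (limma adjusted p = 0.114) and with median-of-ratios scaling (0.0653). The relatives of Fap had 0 of 4 called and 0 with an unadjusted p under 0.05; on the log2 scale the difference was -0.13 for Dpp9 and -0.12 for Prep (limma adjusted p = 0.480 and 0.489).

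Signals that activate fibroblasts gave no calls. All 6 PDGF ligands and other receptors had negative changes (median -0.29), with 0 called by limma and 3 at an unadjusted p under 0.05. Pdgfb was at 28.6 ± 1.495 and 24.5 ± 0.757 TPM and Pdgfc at 11.98 ± 3.23 and 8.06 ± 0.830 TPM (limma adjusted p = 0.193 and 0.226). Of 14 TGF-beta pathway genes 12 had negative changes (median -0.11), with 0 called and 1 at an unadjusted p under 0.05. The receptor gene Tgfbr2 was at 35.8 ± 3.92 and 29.6 ± 3.28 TPM and Smad3 at 69.3 ± 5.70 and 57.8 ± 5.05 TPM (limma adjusted p = 0.269 and 0.202). Among 5 relatives and partners of periostin 0 were called and 2 had an unadjusted p under 0.05: Tgfbi, its paralog, was higher with 74.9 ± 8.83 and 97.6 ± 10.3 TPM, and the integrin gene Itgb5 lower with 95.0 ± 8.12 and 78.0 ± 5.59 TPM (limma adjusted p = 0.147 and 0.154).

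Markers of cells that share these genes were measured beside them. Of 12 mural cell markers, limma called 3 lower and 0 higher, 11 had negative changes and the median was -0.52. An unadjusted p under 0.05 was found for 8 of them, beside 18.7% of all genes tested. Rgs5, a pericyte regulator of G protein signaling, fell from 17.6 ± 2.06 to 9.41 ± 1.20 TPM, and the pericyte potassium channel genes Kcnj8 and Abcc9, whose products form 1 channel, fell from 15.6 ± 1.94 to 8.23 ± 1.58 TPM and from 7.21 ± 1.29 to 3.23 ± 0.527 TPM (limma adjusted p = 0.0266, 0.0464 and 0.0396). Leaving out any one library ended the Kcnj8 and Abcc9 calls, and 5 of the 6 omissions ended the Rgs5 call. With no filter on low values 0 of the 12 were called (limma adjusted p = 0.0763 for Rgs5, 0.114 for Kcnj8 and 0.0997 for Abcc9), with array weights 5, and Kcnj8 was also lost with median-of-ratios scaling (0.0645) and quantile normalization (0.0597). The summed mural markers overlapped, at 281.51 to 288.2 TPM in control and 202.99 to 302.11 TPM in knockdown tumors. The contractile genes Acta2 and Tagln, named after their values were seen, had the highest levels of the list, at 98.1 ± 1.60 and 99.0 ± 21.5 TPM and at 71.5 ± 7.52 and 68.6 ± 23.5 TPM (limma adjusted p = 0.979 and 0.829). All 15 endothelial markers had negative changes (median -0.32), with 0 called by limma and 5 at an unadjusted p under 0.05. They summed to 161.41 to 224.5 TPM in control and 125.67 to 181.77 TPM in knockdown tumors. Cdh5, the endothelial cadherin, was at 16.8 ± 3.74 and 10.0 ± 2.99 TPM, and Esam at 13.3 ± 3.54 and 7.92 ± 0.949 TPM (limma adjusted p = 0.205 and 0.127). The part of mural and endothelial cells in the Sparcl1 and Mmp2 values was not tested.

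**Figure D5:**
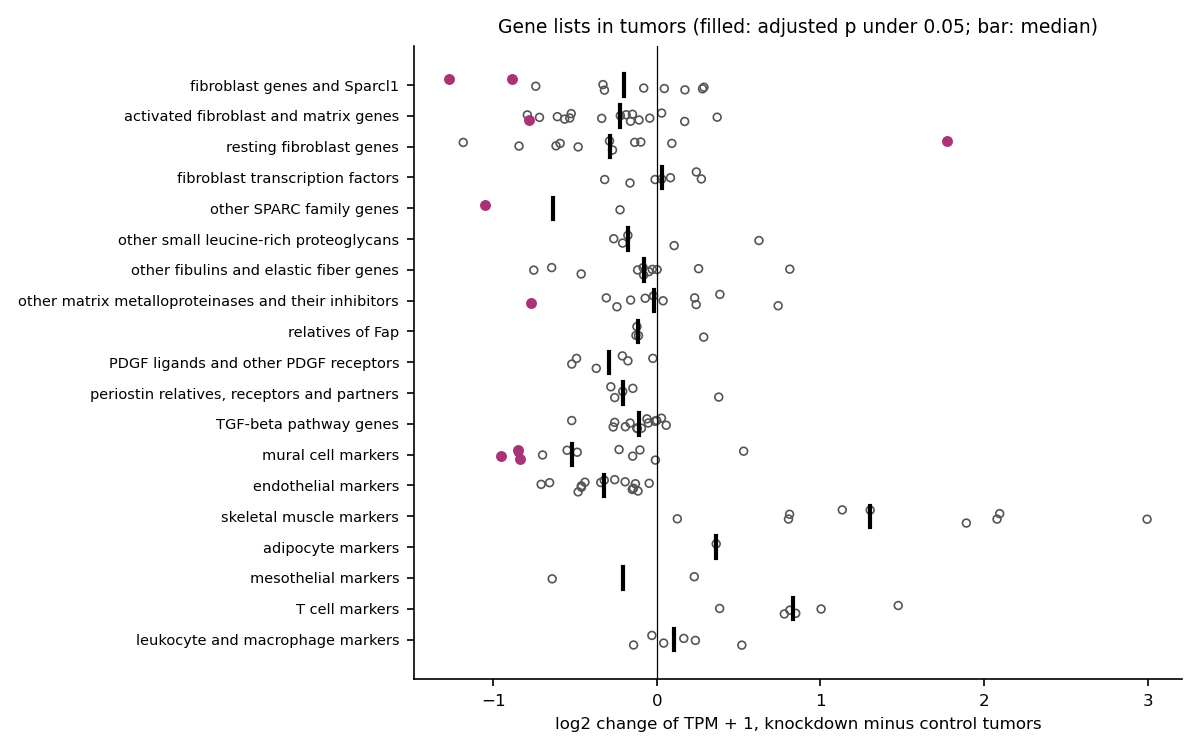
Log2 change of TPM + 1, knockdown minus control tumors, for each tested gene (circle) of each list, with the list median as a bar; filled circles had a limma adjusted p under 0.05. Called genes lie on the lower side except Ly6a, and the lists of endothelial and mural markers lie mostly below 0.

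Markers of further tissues were measured as well, and no marker of the lists for vessels, muscle, fat, mesothelium, T cells or leukocytes was listed at 0 in all 6 tumors. Skeletal muscle markers had positive changes for all 9 tested genes, as did 5910 of all 14915 genes tested. Of the 9, 0 were called and 5 had an unadjusted p under 0.05. The filter asks for a mean of 1 TPM in either group, so Atp2a1 (control mean 0.150 TPM) entered through the knockdown tumors alone. Counts for this list therefore partly follow from the filter. With a filter of 1 TPM in 3 libraries, 5 of the 12 listed genes were tested. Mylpf was at 1.68, 5.69 and 1.84 TPM in the control tumors and at 19.15, 6.18 and 16.98 TPM in knockdown tumors, high in knockdown tumors 1 and 3 (limma adjusted p = 0.179), and Atp2a1 followed it with 0.150 ± 0.0819 and 1.76 ± 1.37 TPM (0.184). Muscle markers summed to 226.41 to 274.12 and 279.37 to 365.41 TPM, a sum that is mostly Eno3, which HM1 cells express in culture too and which was singled out after its values were seen. Knockdown tumor 2 had the lowest Mylpf of the knockdown tumors, 6.18 TPM, just above the highest control tumor, and held Fap at 3.89 and Sparcl1 at 18.84 TPM. The part of muscle in the values of the 10 genes was not tested. The adipocyte list had 1 tested gene, Fabp4, at 10.1 ± 4.80 and 13.4 ± 6.03 TPM (limma adjusted p = 0.683). Adipocyte markers summed to 6.57 to 16.29 TPM in control and 7.46 to 21.6 TPM in knockdown tumors. Of 2 mesothelial markers tested, Msln, which HM1 cells express in culture at 16.8 ± 1.34 TPM, was at 56.9 ± 10.3 and 36.0 ± 4.12 TPM in tumors and Wt1 at 1.39 ± 0.412 and 1.82 ± 0.591 TPM (limma adjusted p = 0.0796 and 0.596); the list summed to 52.33 to 70.73 and 35.84 to 42.5 TPM. Leukocyte and macrophage markers had 0 of 6 called and 1 at an unadjusted p under 0.05, with 4 positive and 2 negative changes (median 0.10). They summed to 922.58 to 1208.09 TPM in control and 857.26 to 1053.28 TPM in knockdown tumors. Ptprc, the common leukocyte antigen, was at 19.1 ± 1.69 and 27.9 ± 4.15 TPM and Cd68 at 79.9 ± 5.73 and 89.5 ± 2.84 TPM (limma adjusted p = 0.0935 and 0.271).

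Genes with the pattern most like that of Sparcl1 and Fap were ranked by Pearson's r of log2(TPM + 1) over the 6 tumor libraries, among 11372 genes. For Sparcl1 they were Eif2d, Cacnb3, Lman1 and Eef2, with r from 0.997 to 0.998. None of these 4 was a fibroblast gene of the lists, and their log2 changes were small, from -0.33 to -0.20. For Fap they were Kcne4 (r = 0.997), Zfp637 (0.992), Phlda2 (0.991) and Elk1 (0.991). Their log2 changes were -1.09, -0.21, -0.68 and -0.18 in that order. Limma called Kcne4 and Phlda2 lower, where 0.436% of all genes tested were called lower. Genes were ranked here by likeness to a gene selected on its group difference, so nothing is read from these calls. Kcne4, a potassium channel subunit, was at 3.64, 3.69 and 3.78 TPM in control and 1.1, 1.46 and 1.08 TPM in knockdown tumors. With 6 libraries in 2 groups, such r values mostly reflect the step between the groups and are a description.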

How the data were processed

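The authors deposited 1 table per sample with gene identifier, name, length and TPM to 2 decimals, per the file headers; every table has the same sum to rounding. Per the submitters' processing notes, fastp, HISAT and RSEM were used with GRCm39; versions and settings are not stated there. RSEM shares reads between similar transcripts; whether counting used strand is not given there either. Each tissue was fitted on its 6 libraries with limma 3.58.1 in R 4.3.3 (trended, robust) on log2(TPM + 1), for genes whose mean reached 1 TPM in either group, two-sided, with Benjamini-Hochberg adjustment over all genes tested and a threshold of 0.05. The 10 genes, the 18 other lists and the tests were chosen with earlier results of these data known. Named genes were the 10, each list's called genes or otherwise its 2 smallest p in tumors, and the 4 most like Sparcl1 and Fap with a tumor mean of 2 TPM or more. On simulated data the fit recovered 76% of tumor genes changed by a log2 of 1 and 91% of those changed by 2, over 14915 genes, with 9 false calls; genes were drawn independently. Alternatives were other pseudocounts, filters, scalings, weights, a joint fit, a replicate block and omitted libraries. Figures used matplotlib 3.10.9 in Python 3.11.15.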

Additional observations from a re-analysis of the deposited data

How the results depend on the processing

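Fap and Sparcl1 were lower in knockdown tumors under each of the 15 alternatives, with log2 changes of -1.04 to -0.77 and -1.46 to -1.13; their selection used these 6 tumors, so the direction is no sign of stability. The number of the 10 genes called, 2, was 0 to 2 when a library was left out and 0 without knockdown tumors 1 and 3, which leaves 1 knockdown tumor assumed to vary like the controls. The median change of the 10 stayed between -0.41 and -0.04. The count of all genes called in tumors, 225, was 82 with no filter, 599 with all 4 groups in one fit, 795 with array weights, 72 without knockdown tumors 1 and 3, and 38 to 229 with a library left out. In culture the count of 4 was 11 with a pseudocount of 0.1, 8 with a filter of 1 TPM in 3 libraries, 8 in the joint fit, 8 with array weights and 7 to 15 with a library left out. Signs changed, with no call, for Pdgfra (-0.080 with array weights, -0.42 without knockdown tumors 1 and 3, -0.21 to 0.28 with a library left out), Postn (-0.043 without those tumors, -0.017 to 0.30), Lum (-0.16, -0.0065 to 0.51), Dcn (-0.35 to 0.10 with a library left out), Fabp4 (-0.34 without those tumors) and Sparc in culture (-0.11 to 0.049 with a library left out). The cause of these shifts was not tested. With the replicate number as a block, 0 of the 10 genes were called by limma (6 had an unadjusted p under 0.05) and 2 genes in all in tumors, and 4 in culture; the calls of Cthrc1, Ly6a, Smoc2, Mmp9, Rgs5, Kcnj8 and Abcc9 were lost too. Other calls were gained. Ptprc was called higher with median-of-ratios scaling, with quantile normalization and in the joint fit. Cd3e was called higher in the joint fit and with array weights, and Cd3d and Cd3g in the joint fit. Msln was called lower in the joint fit and with array weights. The joint fit also called Col3a1, Ccl11 and Notch3 lower and Mmp13 and Tnnt3 higher. Array weights also called Fn1, Tnc and Notch3 lower. The mural marker Mcam was called lower with array weights, quantile normalization, a filter of 1 TPM in 3 libraries, and without knockdown tumor 3. Running the alternatives for genes outside the 10 was chosen after seeing the data. Deviations of same-numbered samples correlated at -0.144, -0.0169 and 0.0489 in tumors and -0.0597, -0.0651 and -0.155 in culture. With 3 samples per group and deviations taken from the group mean, these values cannot decide whether the numbers pair the samples. Depth is unknown, so levels near 0 in culture have no counting limit.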
